A study of Mus musculus with 6 samples.

Results

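The genes described here are 9 GABAergic interneuron genes, picked by gene name and found as 9 of the 41386 genes in the deposited count table. They are Gad1, Gad2, Slc32a1, Pvalb, Sst, Vip, Reln, Lhx6 and Calb2. Their expression was measured by bulk RNA-seq in mouse hippocampus, in 3 libraries of sham-operated mice (sham) and 3 libraries of mice after 1.5 h of middle cerebral artery occlusion (MCAO) and 24 h of restored blood flow (ischemia/reperfusion, I/R). Both groups were mice 56 days old of strain C57BL/6 in the labels and C57BL/6J in the study's methods, and the sham mice had the same surgery without the filament that closes the artery. Per the study's methods, the hippocampus of the operated side was taken and 3 hippocampi were pooled for a replicate, and errors given here are therefore between pools. Library totals ran from 37493042 to 44788547 counts.

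GABAergic interneurons are the inhibitory neurons of the hippocampus. They make GABA from glutamate with the decarboxylases GAD67 (Gad1) and GAD65 (Gad2), load it into synaptic vesicles with the transporter VGAT (Slc32a1), and restrain the glutamatergic pyramidal and granule cells around them. Subclasses are told apart by further products: the calcium buffers parvalbumin (Pvalb) and calretinin (Calb2), the peptides somatostatin (Sst) and vasoactive intestinal peptide (Vip), the secreted glycoprotein reelin (Reln), and the LIM homeodomain factor Lhx6 of cells born in the medial ganglionic eminence. Somatostatin cells of the hilus and of stratum oriens are known for their sensitivity to ischemia, and parvalbumin basket cells are often described as more resistant.

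The label was checked first. Differences between groups are given as log2 fold changes (log2FC), I/R minus sham, from the test described with the first comparison. Every member had at least 662 counts in every library, so all 9 passed the filter on low counts, none through one group only. The counting error of such a count is at most 3.89%. Not all of this RNA needs to come from interneurons. Calb2 is also made by Cajal-Retzius cells, mossy cells and immature granule cells, Reln also by Cajal-Retzius cells, and Gad1, Gad2 and Slc32a1 also by striatal projection neurons. The dentate granule cell list, which marks the labelled tissue, summed to 545 to 599 CPM (counts scaled to a common library total after TMM, the trimmed mean of M-values) in sham and to 150 to 294 CPM after I/R. The striatal list summed to 76.7 to 112 CPM in sham and 60.9 to 85.3 CPM after I/R, with Drd1 called higher (log2FC 0.81), Ppp1r1b called lower (-0.82, not called with library size only) and the other 5 genes not called. Among those 5, the defining marker Adora2a was at 2.35 ± 0.130 CPM in sham and 2.30 ± 0.151 CPM in I/R (SD, n = 3 each). Choroid plexus RNA differed strongly between libraries of both groups. That list summed to 34.5 CPM in I/R replicate 3 and 36.9 CPM in sham replicate 1, and to 1602 to 4429 CPM in the other libraries. I/R replicate 1 also stood apart, with the lowest glutamatergic sum of its group (1176 CPM against 3490 and 3988 CPM) and the highest reactive astrocyte sum (4389 CPM against 2777 and 2916 CPM). The reactive astrocyte list was at 491 to 534 CPM in sham, and 4 of its 4 genes were called higher at a median log2FC of 3.62, where 21.8% of all genes tested were called higher. Its part in the members' values was not tested.

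The comparison of I/R with sham asked how far this inhibitory gene set changed one day after reperfusion. Sst, Pvalb and Calb2 each fell by 32.3% to 32.7% in mean CPM, Slc32a1 and Gad1 fell by less, and Gad2, Reln, Lhx6 and Vip did not pass the test. A gene was called at an adjusted p under 0.05 (edgeR's quasi-likelihood test, Benjamini-Hochberg over all 18569 genes tested) with a fold change over 1.2 in either direction, which is 0.263 as a log2 fold change (I/R minus sham). By this rule 5 of the 9 genes (55.6%) were called lower and 0 were called higher, where 19.9% of all genes tested were called lower, 21.8% higher and 41.8% in either direction. With edgeR's unadjusted p, with DESeq2 and with limma-voom the count of members called higher was also 0. Over all 18569 genes 4738, 4278 and 3966 were called higher in the same order. In 7 of the 9 (77.8%) every I/R library lay below every sham library in TMM-scaled CPM. On that scale 28.1% of all genes did so and 57.4% were apart in either direction. Later statements on the overlap of a gene's CPM use the same scale, and for Gad1, Slc32a1, Reln and Lhx6 the separation depended on it. The median log2 fold change of the members was -0.29, and that of all genes tested was 0.026. In bulk tissue, fewer cells of a type and less RNA per cell cannot be told apart.

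**Figure D1:**
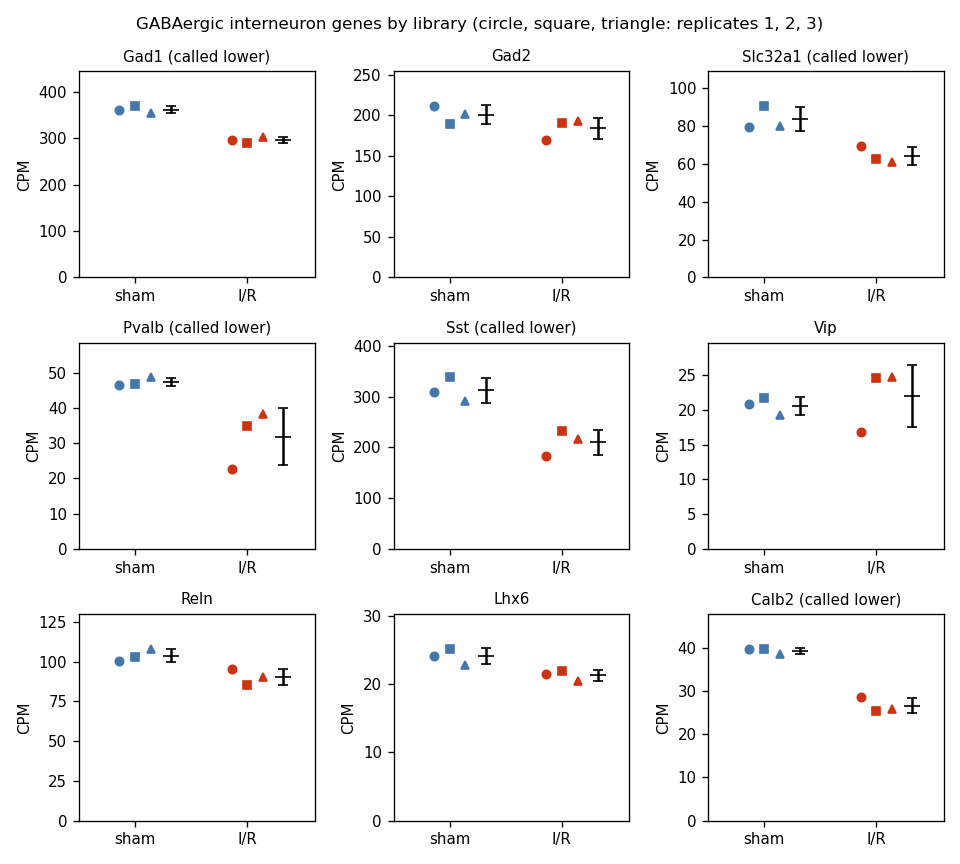
Each panel plots 1 gene in CPM (TMM-scaled, axis from 0) for sham (blue) and I/R (red). Circles, squares and triangles are replicates 1, 2 and 3, and the black mark is the mean with its SD. The I/R points of Sst, Pvalb, Calb2, Slc32a1, Gad1, Reln and Lhx6 all sit below the sham points, while those of Gad2 and Vip overlap them.

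Somatostatin is the peptide of dendrite-targeting interneurons, and its gene lies on chromosome 16 from 20670122 to 20671385 on the minus strand (BALB/cJ assembly, as in the deposited table). Sst was at 183, 231 and 216 CPM in I/R replicates 1, 2 and 3 and at 308, 338 and 290.7 CPM in sham replicates 1, 2 and 3. All 3 I/R libraries were below all 3 sham libraries, and replicate 1 was the lowest of the I/R group. The mean was 210.4 ± 24.5 CPM after I/R against 312 ± 24.2 CPM in sham (SD, n = 3 each), a log2 fold change of -0.57 with a standard error (SE) of 0.12 and an edgeR adjusted p of 0.00705. The call was made in each of the 6 fits that leave out a single library, at log2 fold changes of -0.66 to -0.48. It was lost, at an edgeR adjusted p of 0.0527 and a log2 fold change of -0.61, when both libraries with little choroid plexus RNA were left out, which leaves 2 libraries in each group.

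The Sst promoter is shown because it carries the classic cAMP response element, through which the factor CREB was found, and because the other peptide gene among the members, Vip, holds a variant of it. The windows are the RefSeq promoter windows of the build GRCm38.p6, which is not the build of the count table, and run from 250 bases before to 50 bases after the start site. Capitals mark TGACG on either strand, and TGACGTCA where the whole element is present. The Sst window is chr16:23890795-23891094 on the minus strand, the Vip window chr10:5638968-5639267 on the plus strand and the Gad2 window chr2:22622077-22622376 on the plus strand.
Sst: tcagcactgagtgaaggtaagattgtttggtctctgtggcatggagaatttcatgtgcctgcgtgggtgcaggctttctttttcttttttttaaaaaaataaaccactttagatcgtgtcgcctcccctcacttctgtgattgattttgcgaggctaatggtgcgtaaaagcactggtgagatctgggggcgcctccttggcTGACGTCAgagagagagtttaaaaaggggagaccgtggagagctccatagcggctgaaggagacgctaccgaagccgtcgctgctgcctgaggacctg
Vip: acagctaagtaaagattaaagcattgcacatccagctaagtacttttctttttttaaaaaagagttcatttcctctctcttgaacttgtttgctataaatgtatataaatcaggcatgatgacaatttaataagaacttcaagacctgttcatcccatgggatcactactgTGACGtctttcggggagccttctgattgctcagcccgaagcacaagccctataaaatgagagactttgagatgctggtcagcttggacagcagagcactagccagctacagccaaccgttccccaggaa
Gad2: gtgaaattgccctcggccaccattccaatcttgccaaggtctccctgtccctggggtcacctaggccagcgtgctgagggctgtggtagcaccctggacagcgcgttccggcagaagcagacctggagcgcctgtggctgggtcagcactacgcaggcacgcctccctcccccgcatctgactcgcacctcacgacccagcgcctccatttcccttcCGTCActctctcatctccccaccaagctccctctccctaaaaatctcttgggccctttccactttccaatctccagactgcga

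TGACGTCA was found in the Sst window only, beginning 48 bases before the start site, among the 11 windows that the table held for 8 of the 9 genes. It is in 1.79% of all 32851 windows of this length. The shorter TGACG, searched on both strands and lying within the longer motif in Sst, was also in Vip, beginning 79 bases before the start site, and on the opposite strand in Gad2, beginning 33 bases before it. Of all windows, 20.8% hold it. Sst was called lower and Vip and Gad2 were not called, so the letters were shared by genes with and without a call. The window of Vip had the lowest GC content of the members at 41.7% and that of Reln the highest at 80.7%, and the median of all windows was 52.7%. TATAAA, present at least once in 13.6% of all windows, was found 3 times in the Vip window and, on the opposite strand, in the Gad1 window and in 1 of the 3 Lhx6 windows. TAATTA, the core that many homeodomain factors bind, was in none of the 11 windows and in 5.29% of all windows. Calb2 was not analysed here for promoter motifs.

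Parvalbumin is the fast calcium buffer of basket and axo-axonic cells, which contact the soma and axon initial segment of pyramidal cells. Its gene lies on chromosome 15 from 75639448 to 75654730 on the minus strand. Pvalb was at 22.7, 34.8 and 38.2 CPM after I/R against 46.6, 46.8 and 48.7 CPM in sham. The groups did not overlap, and I/R replicate 1 was far below the other libraries of its group. The mean was 31.9 ± 8.18 CPM after I/R against 47.4 ± 1.19 CPM in sham, or log2FC -0.57 ± 0.18 (SE; edgeR adjusted p = 0.0343). Leaving out I/R replicate 1 gave -0.38, still called (0.00177). The call was lost without I/R replicate 2 (log2FC -0.66, edgeR adjusted p = 0.0527) and without sham replicate 1, 2 or 3 (-0.59, -0.59 and -0.56, with 0.0818, 0.0915 and 0.0960), at differences of about the same size or larger. With library size only, in place of TMM, Pvalb was at -0.33 and not called (0.126).

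Calretinin (Calb2, chromosome 8 from 108410820 to 108439219 on the minus strand) is a calcium buffer of interneurons that mainly contact other interneurons. Its level was 28.7, 25.4 and 25.9 CPM after I/R against 39.9, 39.8 and 38.6 CPM in sham. The groups were far apart for their spread, with means of 26.7 ± 1.80 and 39.4 ± 0.698 CPM, and here I/R replicate 1 was the highest of its group. The log2FC was -0.56 ± 0.090 (SE; edgeR adjusted p = 0.00249), the smallest adjusted p of the 9 genes. It stayed called in each of the 6 fits without a single library, at -0.62 to -0.55. Trp73, which marks Cajal-Retzius cells, was also called lower, at 3.68 ± 0.729 CPM after I/R against 7.12 ± 1.29 CPM in sham (log2FC -0.95 ± 0.22, SE; edgeR adjusted p = 0.0112). Of the other Cajal-Retzius markers Lhx5 was called higher (log2FC 2.11, SE 0.62, edgeR adjusted p of 0.0275), a call lost without I/R replicate 1. Lhx1 and Ebf3 were not called. The summed list, which holds Reln and Calb2, was at 117 to 136 CPM after I/R against 148 to 157 CPM in sham. Of the markers of mossy cells other than Calb2, Calcrl was called higher (0.85) and Drd2 was not called. Of those of immature granule cells, Sox11 was called higher (0.85), Neurod1 was called lower (-0.56, not called with library size only) and Dcx and Igfbpl1 were not called. The part of these cells in the level of Calb2 was not tested.

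The genes for making and loading GABA had smaller log2FC. Gad1 (chromosome 2 from 68047140 to 68096470, plus strand) was at 297, 289 and 302 CPM after I/R against 361, 370.4 and 354 CPM in sham. It varied by 2.15% within I/R and 2.22% within sham, and the groups did not overlap. The log2FC was -0.29 ± 0.092 (SE; edgeR adjusted p = 0.0352), with means of 296 ± 6.37 and 362 ± 8.04 CPM. The call was lost on the adjusted p, with log2FC still past the fold change limit, without I/R replicate 2 (-0.29, edgeR adjusted p = 0.0994) and without sham replicate 1, 2 or 3 (-0.30, -0.28 and -0.31, with 0.106, 0.116 and 0.101). It was also not called with library size only (-0.034, 0.774). The antisense gene Gad1os, which overlaps Gad1 on the opposite strand, had 2 to 15 counts in a library against 11562 to 15053 for Gad1.

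Slc32a1, whose product VGAT loads GABA and glycine into vesicles, lies on chromosome 2 from 157437260 to 157442297 on the plus strand. Its level was 69.8, 62.5 and 60.9 CPM after I/R against 79.7, 91.0 and 80.3 CPM in sham, so the groups did not overlap. The means were 64.4 ± 4.73 and 83.6 ± 6.35 CPM, or log2FC -0.38 ± 0.093 (SE; edgeR adjusted p = 0.0139). Without sham replicate 2, the highest library, it was -0.32 and no longer called (0.0570). With library size only it was -0.12 (0.399). Of the 50-base stretches of the Slc32a1 transcripts in GENCODE M21, 23.7% also lay in the antisense gene Gm14205, which had 0 to 3 counts in a library against 2435 to 3697 for Slc32a1. Whether counting used the strand is not given in the sources used here, so the reads of the 2 genes cannot be told apart there.

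Gad2, the isoform concentrated at axon terminals, did not pass (chromosome 2 from 19625940 to 19696166, plus strand). It was at 169, 191 and 193 CPM after I/R against 212, 189 and 201 CPM in sham, and the groups overlapped. The log2FC was -0.12 ± 0.096 (SE; edgeR adjusted p = 0.334), with means of 184 ± 13.1 and 201 ± 11.4 CPM.

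Vip marks interneurons that inhibit other interneurons (chromosome 10 from 2540765 to 2549156, plus strand), and it was the only member whose mean was higher in I/R, at 22.0 ± 4.50 CPM against 20.6 ± 1.28 CPM in sham. The I/R libraries were at 16.9, 24.6 and 24.7 CPM and the sham libraries at 20.9, 21.8 and 19.2 CPM. Replicate 1 was the lowest of all 6 libraries and the other I/R libraries were the highest, so the groups overlapped. The log2FC was 0.095 ± 0.16 (SE; edgeR adjusted p = 0.662). Without I/R replicate 1 it was 0.25 at an edgeR adjusted p of 0.0459, below the limit of the fold change rule.

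Reln encodes reelin, a matrix protein that places neurons in development and acts on synapses in the adult (chromosome 5 from 19264102 to 19722346, minus strand). It was at 95.6, 85.1 and 90.4 CPM after I/R against 100.2, 103 and 108 CPM in sham. The groups did not overlap, but the log2FC of -0.20 (SE 0.081, edgeR adjusted p of 0.0822) did not pass. Without I/R replicate 1 it was -0.24 at an edgeR adjusted p of 0.00847, short of the fold change limit and so not called. Lhx6 (chromosome 2 from 33395076 to 33418621, minus strand) was at 21.4, 22.0 and 20.5 CPM after I/R against 24.2, 25.2 and 22.9 CPM in sham. These groups did not overlap either, at a log2FC of -0.18 ± 0.094 (SE; edgeR adjusted p = 0.167) that did not pass. Within the span of Reln, the table lists the gene Gm10475 on the opposite strand, which was singled out after its values were seen. It was counted 597, 111 and 176 times after I/R and 0, 4 and 0 times in sham, against 3400 to 4353 counts of Reln, and without known strand use its reads and those of Reln cannot be told apart.

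How far the calls depended on scaling was a further question, since the TMM factors differed between I/R (1.06 to 1.15) and sham (0.908 to 0.920). The median log2 fold change of all genes tested was 0.026 after TMM and 0.281 when libraries were scaled by size alone, a shift that every member shared. With library size only, 2 of the 9 genes (22.2%) were called, both lower, namely Sst at -0.32 (SE 0.099, edgeR adjusted p of 0.0303) and Calb2 at -0.30 (edgeR adjusted p of 0.0491). Under that scaling 45.0% of all genes were called, 10.9% lower and 34.1% higher. Gad2, Reln, Lhx6 and Vip then had log2 fold changes above 0, at 0.13, 0.059, 0.079 and 0.34, and were not called. In the authors' FPKM, which are scaled without TMM, the groups of Gad1, Slc32a1, Reln and Lhx6 overlapped, as did those of Gad2 and Vip. Gad1 was at 177, 160 and 166 FPKM after I/R against 172, 175 and 169 FPKM in sham. Sst, Pvalb and Calb2 stayed lower in every I/R library. The share of all genes apart on that scale was not computed. Since scaling moves all genes alike, the distance of each member from the median of all genes is nearly fixed and is given as a description. With TMM, the difference from that median was -0.60 for Sst, -0.60 for Pvalb, -0.59 for Calb2, -0.40 for Slc32a1, -0.32 for Gad1, -0.23 for Reln, -0.20 for Lhx6, -0.15 for Gad2 and 0.069 for Vip. With library size only, they were -0.60, -0.61, -0.59, -0.40, -0.32, -0.22, -0.20, -0.15 and 0.061 in the same order.

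**Figure D2:**
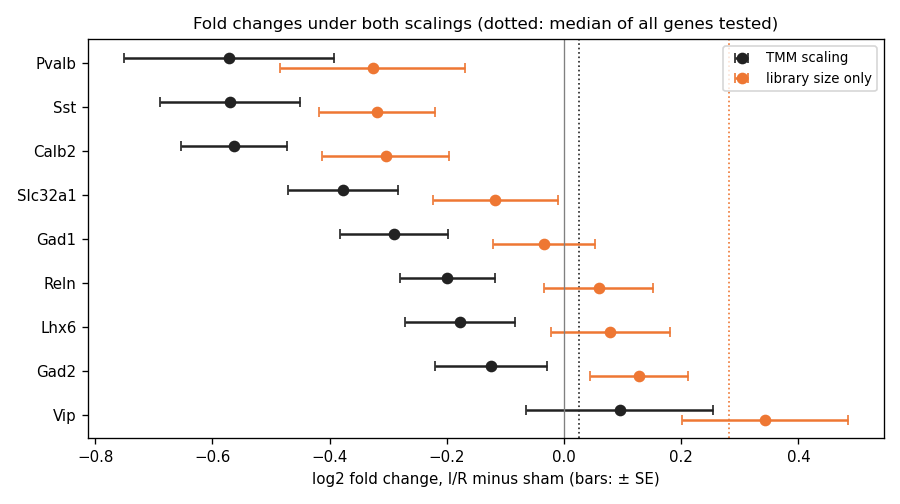
Points are log2 fold changes (I/R minus sham) of the 9 genes with TMM scaling (black) and library size only (orange), with bars of 1 SE, and the dotted lines are the medians of all genes tested, 0.026 and 0.281. The order of the genes along the axis is the same with both scalings, and Pvalb, Sst and Calb2 lie farthest to the left.

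Ratios of 2 genes within a library do not depend on scaling, and 11 were computed. For every count of Slc17a7, the vesicular glutamate transporter VGLUT1 of forebrain excitatory neurons, sham libraries held 0.209, 0.195 and 0.199 counts of Gad1 in replicates 1, 2 and 3. In I/R they held 0.922, 0.340 and 0.325. All 3 I/R libraries were above sham, and replicate 1 was far above the others. The ratio was 2.33-fold higher in I/R on average, a difference of 1.22 on the log2 scale (SD 0.85 in I/R and 0.051 in sham, n = 3 each), and without I/R replicate 1 the difference was 0.73. Gad2 and Slc32a1 relative to Slc17a7 were likewise higher in every I/R library, by 1.38 and 1.13 on the log2 scale, and by 0.96 and 0.59 without I/R replicate 1. The exact two-sided permutation p was 0.1 for each of these, the smallest that 3 against 3 libraries can give, and 0.22 after Benjamini-Hochberg adjustment over the 11 ratios. Slc17a7 itself fell from 1805 ± 89.0 to 700.4 ± 330.4 CPM, log2FC -1.37 (SE 0.35, edgeR adjusted p of 0.0165). The median log2FC of all genes tested was 0.026, so a gene at that median also rises relative to Slc17a7. The share of all genes higher relative to Slc17a7 in every I/R library was not computed. A rise of these ratios is therefore not particular to the GABAergic genes.

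Relative to Gad1, 2 members were lower in every I/R library. The share of all genes that were so relative to Gad1 was not computed. In TMM-scaled CPM, 28.1% of all genes were lower in every I/R library. Sst was at 0.619, 0.800 and 0.717 counts per count of Gad1 in I/R and at 0.855, 0.914 and 0.820 in sham, a difference of -0.28 on the log2 scale (SD 0.19 in I/R and 0.079 in sham). Calb2 was at 0.0969, 0.0878 and 0.0858 in I/R and at 0.111, 0.107 and 0.109 in sham, also a difference of -0.28 (SD 0.093 and 0.021). Both had an exact two-sided permutation p of 0.1 (0.22 adjusted over the 11 ratios). The ratios of Pvalb, Slc32a1, Gad2, Vip, Reln and Lhx6 to Gad1 overlapped between groups, at differences of -0.32, -0.087, 0.16, 0.37, 0.090 and 0.11. For Pvalb the difference was -0.085 without I/R replicate 1.

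**Figure D3:**
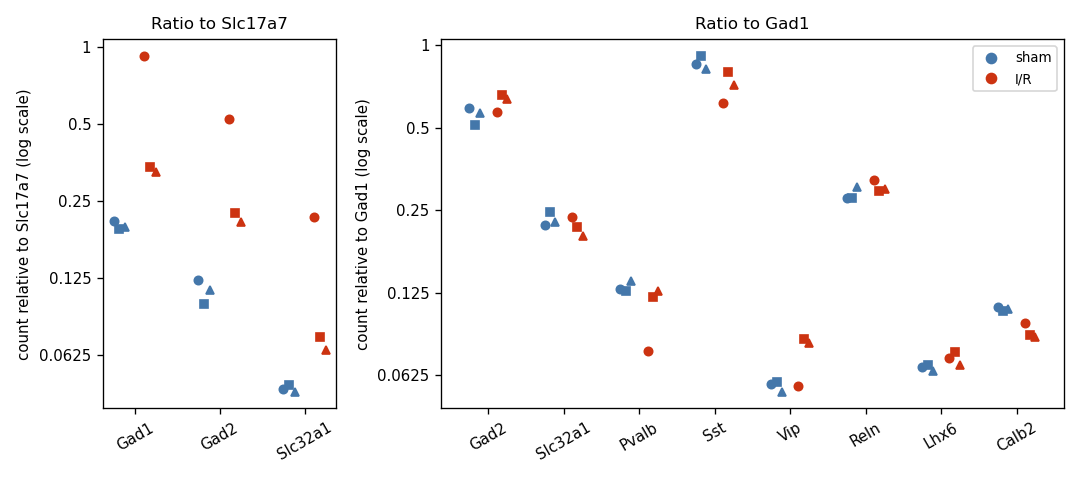
Counts of each gene relative to Slc17a7 (left) and to Gad1 (right) within each library, on log axes, for sham (blue) and I/R (red), with replicates 1, 2 and 3 as circles, squares and triangles. All I/R points lie above sham in the left panel, with replicate 1 highest, and in the right panel the I/R points of Sst and Calb2 alone lie fully below sham.

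Levels between genes were compared per length, as CPM per kilobase of the length listed in the table. In sham, Sst was the highest at 522 ± 40.4, followed by Gad1 at 101 ± 2.24, Pvalb at 48.5 ± 1.22, Gad2 at 34.8 ± 1.98, Slc32a1 at 29.3 ± 2.23, Calb2 at 27.6 ± 0.488, Vip at 13.5 ± 0.836, Reln at 8.87 ± 0.348 and Lhx6 at 6.92 ± 0.333 (SD, n = 3 each). Neighbours in this order did not overlap in sham, but Slc32a1 and Calb2 differed by less than the SD of Slc32a1. In I/R the order was the same, with Pvalb and Gad2 overlapping at 32.6 ± 8.37 and 31.9 ± 2.27. The authors' FPKM implied a shorter length than the listed one for some members, among them Reln at 3233 in place of 11699 bases and Gad1 at 1926 in place of 3598 bases. The order in sham differs on that scale. Gad2, at 52.9 to 60.1 FPKM, stood above Pvalb, at 44.0 to 46.4 FPKM, and Reln, at 28.5 to 30.7 FPKM, stood above Calb2, at 24.8 to 25.7 FPKM, and overlapped Slc32a1, at 25.7 to 28.9 FPKM.

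The pathway around GABA was read from lists of genes. Of 9 genes for GABA uptake, breakdown and precursor supply, 8 were called lower and Slc6a13 did not pass, with a median log2 fold change of -0.72. The share called lower over all genes tested was 19.9%. Slc6a11, the GABA transporter GAT3 of astrocytes, fell from 168 ± 0.715 to 80.4 ± 0.433 CPM, log2FC -1.06 ± 0.073 (SE; edgeR adjusted p = 0.000215). Aldh5a1, which completes GABA breakdown in mitochondria, fell from 104 ± 5.81 to 56.9 ± 5.37 CPM, at -0.87 (SE 0.096, edgeR adjusted p of 0.000724). With library size only, 6 of the 9 were called lower, Slc6a11 and Aldh5a1 among them, where 10.9% of all genes were.

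Of 14 interneuron transcription factors tested, 1 was called higher and 2 lower, where 21.8% and 19.9% of all genes were. The other 11 did not pass, where 10813 of all 18569 genes did not pass. With library size only, 3 were called higher and 2 lower, where 34.1% and 10.9% of all genes were. The median was -0.16 (TMM) or 0.10 (library size only), so its sign depended on scaling. Both genes called lower have other known sources. Prox1 (log2 fold change of -0.77, SE 0.12) is a defining factor of dentate granule cells. The granule list, which holds Prox1 itself, had 7 of 7 genes called lower, where 19.9% of all genes were. Satb1 (-0.62, SE 0.11) is also made outside interneurons. The part of those cells in these values was not tested. Dlx1 and Dlx5, regulators of the GABAergic fate, were at -0.16 (SE 0.11) and 0.0044 (SE 0.23), both with overlapping groups.

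Among 25 other interneuron markers, 24 were tested, since Tac2 had 0 counts. Of these 13 were called lower, 4 higher and 7 not called, with a median of -0.50. Over all genes tested 19.9% were called lower and 21.8% higher. Scaled by library size only, 9 were called lower and 5 higher, with a median of -0.24, where 10.9% and 34.1% of all genes were. Cck, the peptide of a further basket cell class that pyramidal cells also make, fell from 388 ± 32.1 to 145 ± 46.6 CPM, log2FC -1.42 ± 0.22 (SE; edgeR adjusted p = 0.00230). Cort, which encodes the somatostatin-like peptide cortistatin, was called lower with TMM at -0.57 (SE 0.13, edgeR adjusted p of 0.00867) and not called with library size only (-0.32, 0.0722). The rises were Sncg at 0.72 (SE 0.20), the opioid precursor Penk at 0.72 (SE 0.16), Pnoc at 0.68 (SE 0.21) and the serotonin receptor gene Htr3a at 0.50 (SE 0.15). Npy, a peptide of many somatostatin cells, was at 57.2 ± 11.1 CPM after I/R against 47.9 ± 2.70 CPM in sham and did not pass with TMM (0.26, SE 0.14, edgeR adjusted p of 0.185), but was called higher with library size only (0.50, 0.0126).

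Of 11 genes for receptors and effectors of the members' products, 5 were called lower and 1 higher, at a median of -0.26. Over all genes tested 19.9% were called lower, 21.8% higher and 41.8% in either direction. Scaling by library size only gave 3 called lower and 2 higher, at a median of -0.013, where 10.9% and 34.1% of all genes were. The somatostatin receptor genes Sstr4 and Sstr3 fell to 10.5 ± 3.99 and 19.1 ± 6.63 CPM from 33.9 ± 1.73 and 40.9 ± 3.04 CPM. Their log2FC was -1.69 (SE 0.24) and -1.10 (SE 0.23), and Sstr1 was called lower with TMM at -0.41 (SE 0.12) and not called with library size only (-0.15, 0.360). Sstr2 did not pass at 0.017 (SE 0.12), and Sstr5 was called higher from few reads, counted 141, 28 and 26 times after I/R and 1, 7 and 5 times in sham. Adcyap1r1, a receptor of the related peptide PACAP, was at -0.64 (SE 0.091), while Vipr1 and Vipr2 did not pass. Of the reelin receptors, Vldlr was called lower at -0.38 (SE 0.095), and Lrp8 did not pass with TMM at 0.22 (edgeR adjusted p of 0.0612) and was called higher with library size only at 0.48 (0.00485). Vldlr was not called with library size only, at -0.12 (0.250).

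Beside these, the pan-neuronal list had 7 of 9 genes called lower at a median of -0.93, and the glutamatergic list 6 of 8 at a median of -1.16, against -0.29 for the 9 GABAergic genes. The share called lower over all genes tested was 19.9%. With library size only, 7 of 9 pan-neuronal and 4 of 8 glutamatergic genes were called lower, where 10.9% of all genes were. The medians were then -0.69 and -0.92, against -0.034 for the 9 GABAergic genes, of which 2 were called lower. Rbfox3, which encodes the neuronal marker NeuN, was at -0.75 (SE 0.20), Snap25 and Nefl both at -1.30 (SE 0.31 and 0.36), and Camk2a and Nrgn of excitatory cells at -2.07 (SE 0.41) and -1.84 (SE 0.47). The summed levels of both lists were lowest in I/R replicate 1, and without it the medians were -0.73 for the pan-neuronal and -0.86 for the glutamatergic list, with the GABAergic genes at -0.29. The summed level of the 9 genes was 904 to 972 CPM after I/R against 1164 to 1226 CPM in sham. That of the glutamatergic list was 1176 to 3988 and 9861 to 10078 CPM. No test was run on the lists' medians or sums.

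**Figure D4:**
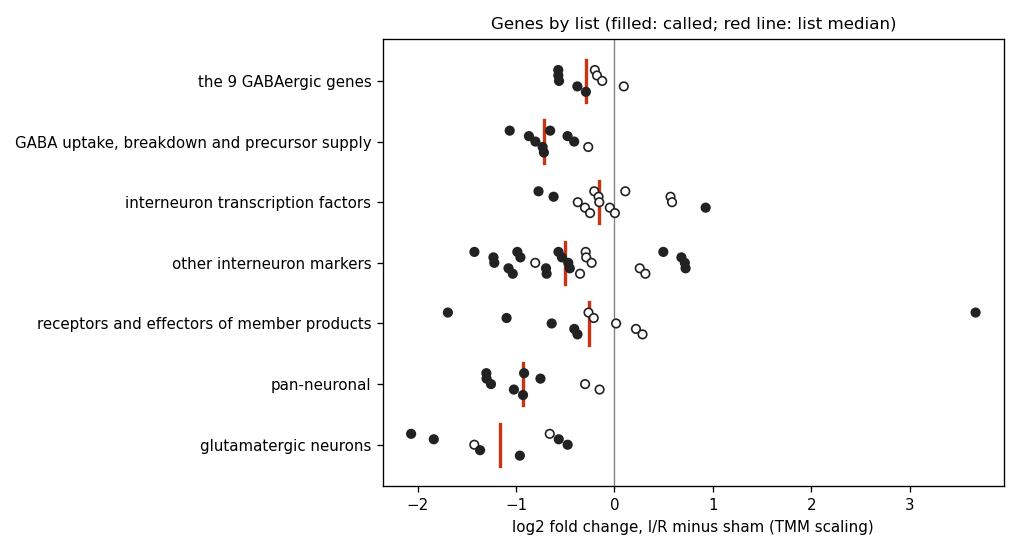
Each point is the log2 fold change (I/R minus sham, TMM scaling) of 1 gene, filled where it was called, and the red lines are list medians. The 9 GABAergic genes have a median of -0.29. The interneuron transcription factors, at -0.16, and the receptors and effectors, at -0.26, sit nearer to 0. The other marker, GABA metabolism, pan-neuronal and glutamatergic lists sit farther from it, at -0.50, -0.72, -0.93 and -1.16.

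Among the 6 libraries, the genes outside the list whose log2 CPM most resembled the mean standardised profile of the 9 genes were 1810043G02Rik, Sall2, Pitpna, Nudcd3 and Ica1l, each with a Pearson correlation of at least 0.999 over 6 libraries. For Sst alone they were Pgm2, Znhit2, Ttc39c, Nckipsd and Idh3b, at 0.996 to 0.998. The libraries fall into 2 groups, which many genes separate, and the correlations are given as a description. Within I/R, the members differed in the place of replicate 1, which was lowest for Pvalb, Sst, Vip and Gad2 and highest for Slc32a1, Reln and Calb2.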

How the data were processed

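The data were bulk RNA-seq of 6 mouse hippocampal libraries. The authors aligned reads with TopHat2 to an Ensembl genome and counted them per gene with HTSeq, per the study's methods, and the submitters' processing notes name Bowtie 0.12.2 and mm8. The deposited table gives raw counts, with identifiers of the BALB/cJ annotation while the mice were C57BL/6J, and FPKM computed by the authors. It also holds the authors' group means, fold changes and p-values, which were not used. The 4 split lines were rejoined. Groups came from the sample titles. The main test was edgeR's quasi-likelihood F-test (version 4.0.16, R 4.3.3) after filterByExpr and TMM, robust and without covariates. The SE was derived as the log2 fold change over the root of its F statistic. Ratios were compared by exact permutation tests. Intervals cover the spread between pooled libraries, which may be partly technical. Alternatives were other scalings and filters, DESeq2 1.42.0, limma 3.58.1 (voom, and log2 of FPKM plus 1 or 0.1), the replicate number as a block, a choroid plexus covariate and leaving out libraries. In each list the genes named were the 2 called with the largest rise and the 2 with the largest fall, plus Slc17a7, Rbfox3, Npy and Cck, and further genes of the lists were named after their values were seen. The members, lists and tests were chosen with earlier results of these data known. Map2 was not analysed here, and a few genes that this rule names are not reported here.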

Additional observations from a re-analysis of the deposited data

How the results depend on the processing

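The 5 members called lower became 2 with library size only, 2 with log2 of FPKM plus 1, 2 with log2 of FPKM plus 0.1 and 0 with a fold change over 2, a stricter rule. Over all 18569 genes, 3702 called lower became 2027, 2041, 2044 and 867 in the same order. Leaving out 1 library gave 2 to 5 members. Over all genes it gave 2426 called lower of 19153 tested without sham replicate 2, where the members called were 2. Without I/R replicate 1 it gave 3966 of 18739, where they were 5. Leaving out both libraries with little choroid plexus RNA, chosen after seeing the data, gave 2 (Pvalb and Calb2), with fewer samples. Over all genes that fit gave 2459 called lower of 18816 tested. The other alternatives gave 4 or 5 members, and between 3058 and 4309 genes called lower over all genes tested. No alternative gave a member called higher. Direction turned with library size only, log2 of FPKM plus 1 and log2 of FPKM plus 0.1 for Gad2 (0.13, 0.13 and 0.13), Reln (0.059, 0.052 and 0.054) and Lhx6 (0.079, 0.070 and 0.077), and for Vip without I/R replicate 2 (-0.0089) and 3 (-0.023), against 0.25 without replicate 1. None of these was called. Calb2 was called in 19 of 20 alternatives and Sst in 18, Slc32a1 in 14, Pvalb in 12 and Gad1 in 6. The adjusted p of Gad1 (edgeR, DESeq2 or limma) ranged from 0.000880 to 0.774. Same-numbered libraries deviated from their group means with correlations of -0.097, 0.056 and -0.18 over genes. The labels give the replicate as a number only. With 3 libraries in each group, these correlations cannot settle whether same-numbered libraries shared a day or batch. With the replicate number as a block the count of members called was 4, all lower, without Gad1 (edgeR adjusted p of 0.116). Over all 18569 genes that fit called 3058 lower.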
